A study of Homo sapiens with 6 samples.

Results

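The receptors for interferons and the proteins that shut their signal down were examined at the level of chromatin in human beta-like cells that had entered senescence. The set held 9 genes: the receptor genes IFNAR1, IFNAR2, IFNGR1, IFNGR2, IFNLR1 and IL10RB, and the inhibitor genes SOCS1, SOCS3 and USP18. Their accessible regions were chosen by position alone. Regions that touched the window of ±2 kb around a protein-coding start site of a member in GENCODE were taken as promoter. A distal region was any other region whose midpoint had a member's start site as its nearest protein-coding one, within 100 kb. This gave 41 regions, 14 promoter and 27 distal, of 108542 regions in all, of which 20094 were promoter and 88448 distal.

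Interferons are secreted on viral infection and by immune cells, and they signal through paired receptor chains. Type I interferons bind IFNAR1 with IFNAR2, interferon gamma binds IFNGR1 with IFNGR2, and type III interferons bind IFNLR1 with IL10RB, a chain that also serves interleukin 10 and its relatives. The receptors switch on JAK kinases and STAT factors, which bind the interferon-stimulated response element (ISRE) and the gamma-activated site (GAS) in target promoters. SOCS1, SOCS3 and USP18 are induced by the same signal and block it, SOCS1 and SOCS3 at the kinases and USP18 at IFNAR2. In pancreatic islets this pathway raises antigen presentation by beta cells and is studied in type 1 diabetes.

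Chromatin was profiled with ATAC-seq, in which a transposase cuts open DNA, in EndoC-βH3 cells. This line was derived from human fetal pancreas and is immortalised by transgenes that a tamoxifen-activated Cre can remove. The 3 non-senescent libraries were from control cells and the 3 senescent libraries from cells induced with 4-hydroxytamoxifen over 3 weeks. Both groups carry the genotype label WT, come from 1 cell line, and used 100000 cells per library. The removal of the transgenes, the 3 weeks of treatment and senescence cannot be told apart in this design, and the labels do not say whether libraries of a group came from separate cultures, so p-values may measure technical spread.

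The deposited table gives for each region the mean signal over the 6 libraries, in normalised reads, the log2 fold change with its standard error (SE), and an adjusted p-value from the authors' DESeq2 fit. Values of separate libraries are not given in it, so those below are the fitted ones, with 95% intervals of the log2 fold change plus or minus its normal error, and overlap between libraries cannot be read. Group means given below are those implied by the mean signal and the fold change with 3 libraries per group, and are approximate. The table does not name the numerator of its fold change. It was read as senescent over non-senescent, under which the larger promoter region of the proliferation gene MKI67 was lower in senescent cells, at -0.53 (SE 0.097, adjusted p = 4.61e-07), and all directions rest on that reading. A region was called when the adjusted p was under 0.05 and the change exceeded 1.5-fold, which is 0.585 on the log2 scale.

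All 6 beta cell markers listed had a promoter region, with a mean signal at the strongest of 7894 for INS, 2900 for PDX1, 1627 for NKX6-1, 641 for MAFA, 559 for SLC30A8 and 183 for IAPP. The alpha cell marker GCG was weak, at 66.3, but IRX2, also listed for alpha cells, was at 1340, above 3 of the beta markers. Of the delta markers, HHEX was at 478 and SST at 195. Markers of acinar (CPA1 2101, CTRB1 118), duct (KRT19 1059), immune (CD68 644), endothelial (PECAM1 117) and stromal cells (COL1A1 142) had promoter regions too, whereas PRSS1, CFTR, PTPRC, CD3E, VWF and PDGFRB of the same lists had none in the table. Of the beta marker promoter regions, 4 of 13 were called higher and none was called lower. Of all promoter regions, 3.56% were called higher. These 4 calls were all at INS and IAPP, and no region of PDX1, NKX6-1, MAFA or SLC30A8 was called. Among the 4 was the strongest INS region, at 1.11, which is shared with IGF2. The INS promoter region not shared with IGF2, with a mean signal of 1838, was at 0.04 (SE 0.054, adjusted p = 0.601) and was not called. All 3 promoter regions of the delta cell markers SST and HHEX were called lower, beside 9.04% of all promoter regions. Their part in the results below was not tested. A mean over a culture also cannot tell fewer open cells from less opening per cell.

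Of the 14 promoter regions, 1 was called higher and 0 lower, where 3.56% of all promoter regions were called higher and 9.04% lower. The median log2 fold change was -0.17 over the 14 and -0.13 over all promoter regions. On the adjusted p alone, 2 were higher and 4 lower, that is 14.3% and 28.6%, beside 10.2% and 34.7% of all promoter regions. So the shares lower were close to or under the background, and the share higher rests on 1 or 2 regions. The called region lay inside IFNGR2, and none of the inhibitor promoters was called.

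**Figure D1:**
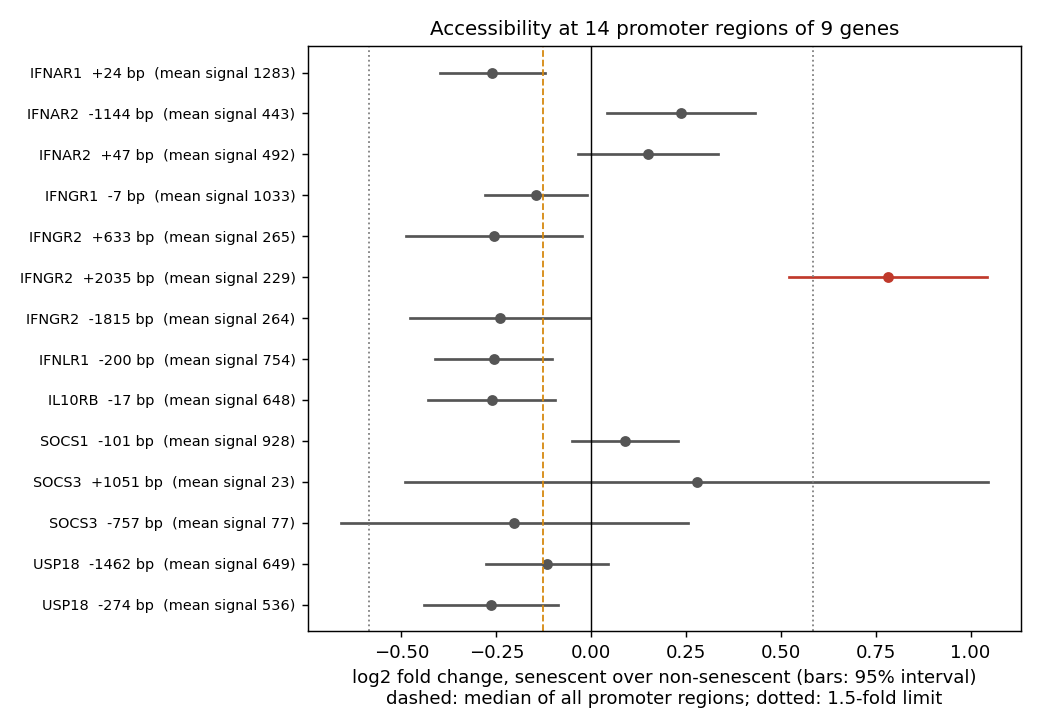
Log2 fold change of the 14 promoter regions, senescent over non-senescent, with 95% intervals. Each row gives the gene, the distance of the region's midpoint from the nearest start site of that gene in bp, and the mean signal. The region 2035 bp inside IFNGR2 is the one past the 1.5-fold limit, and 13 others lie between -0.26 and 0.28.

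The type I receptor genes differed in direction at their promoters without passing the fold limit. IFNAR1, which encodes the low-affinity chain, had 1 promoter region, at chr21:33324315-33325684 in hg38, the coordinates used throughout. It had a mean signal of 1283 and implied means of 1399 in non-senescent and 1168 in senescent cells. The log2 fold change was -0.26 (SE 0.070, adjusted p = 0.000943), lower but short of the fold limit. When the median change of regions of like signal was subtracted it was -0.14 with an adjusted p of 0.0958, and no longer passed the test.

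IFNAR2, the high-affinity chain, had a pair of promoter regions. The one at chr21:33203849-33204427, centred 1144 bp before its first start site, had a mean signal of 443 and a log2 change of 0.24 (SE 0.099, adjusted p = 0.0416). The other, at chr21:33229292-33231167, which is also the promoter of the IFNAR2-IL10RB readthrough gene, had 492 and 0.15 (SE 0.094, adjusted p = 0.196). Both values were above 0 and under the fold limit. With the trend on mean signal removed the second was 0.25 with an adjusted p of 0.0229.

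The interferon gamma receptor genes held the called promoter region. IFNGR1, the ligand-binding chain, was open at chr6:137218734-137219768 with a mean signal of 1033 and a log2 change of -0.15 (SE 0.069, adjusted p = 0.0755). IFNGR2, the chain that brings in JAK2, had 3 promoter regions that did not move together. Just past its start site, with its near edge 106 bp from it, chr21:33403572-33404627 had a mean signal of 265 and a log2 change of -0.26 (SE 0.119, adjusted p = 0.0694). An intronic region near an internal start site, chr21:33412760-33413450, had 264 and -0.24 (SE 0.121, adjusted p = 0.0941). Neither passed the test.

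Between them, chr21:33405306-33405697 was called higher. It lies in an intron with its midpoint 2035 bp past the start site and its near edge 1840 bp from it, so it counts as promoter only through the outer part of the 2 kb window, and with a window of 1 kb no promoter region was called higher. The mean signal was 229, with implied means of 168 in non-senescent and 289 in senescent cells. The log2 fold change was 0.78 (SE 0.133, 95% interval 0.52 to 1.04, adjusted p = 4.52e-08), a 1.72-fold difference. Its interval did not reach those of the other IFNGR2 promoter regions, which ended below 0. A test that the change exceeds 1.5-fold gave an adjusted p of 0.483, so the data do not place it firmly past that limit.

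The middle of this region is printed because it is the one promoter region of the set that was called higher. It comes from chr21:33405427-33405576, plus strand, and holds none of the 7 motifs searched, so no letter is in capitals.
IFNGR2 intronic region: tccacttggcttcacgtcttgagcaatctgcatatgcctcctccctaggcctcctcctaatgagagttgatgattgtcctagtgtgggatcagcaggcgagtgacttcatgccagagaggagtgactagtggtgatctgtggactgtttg

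The type III receptor genes resembled IFNAR1 in value. IFNLR1, whose expression confines type III signalling largely to epithelial cells, had a promoter region at chr1:24186830-24188149 with a mean signal of 754 and a log2 change of -0.26 (SE 0.079, adjusted p = 0.00384). IL10RB, at chr21:33265701-33267000, had 648 and -0.26 (SE 0.085, adjusted p = 0.00719). Both were lower by less than the fold limit. With the trend on mean signal removed, the values were -0.14 (adjusted p = 0.144) and -0.12 (adjusted p = 0.252), and neither passed the test.

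The inhibitor promoters showed no call. SOCS1, whose product binds JAK kinases, had 1 region across the gene, at chr16:11254937-11257673, whose midpoint lies in an intron of RMI2. The mean signal was 928 and the log2 fold change 0.09 (SE 0.071, adjusted p = 0.328). After subtraction of the trend on mean signal the value was 0.20 with an adjusted p of 0.0144, still far under the fold limit.

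SOCS3, which acts on gp130 receptors and JAKs, had the weakest promoter of the set. The region in its coding exon, chr17:78358869-78359177, had a mean signal of 23.1 and a log2 change of 0.28 (SE 0.39, adjusted p = 0.598). The one at chr17:78360581-78361088, in an exon of the divergent transcript SOCS3-DT, had 77.3 and -0.20 (SE 0.23, adjusted p = 0.512). At this signal the intervals, -0.49 to 1.05 and -0.66 to 0.26, reached past the fold limit on 1 side, upward in the first and downward in the second, so a change of that size in that direction is not excluded.

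USP18, a protease that removes ISG15 and also binds IFNAR2, had a region upstream, chr22:18148192-18149121, with a mean signal of 649 and a log2 change of -0.12 (SE 0.082, adjusted p = 0.256). The region next to its start site, chr22:18149469-18150220, had 536 and -0.26 (SE 0.090, adjusted p = 0.0101). The second was lower and short of the fold limit.

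Signal per kb of region ordered the promoters from IFNGR1 (998 normalised reads per kb, percentile 78.4 of all promoter regions) and IFNAR1 (937, percentile 75.9) down to SOCS3 (152 and 74.9, percentiles 15.8 and 4.19). SOCS1 lay at 339 per kb, percentile 35.9, over a region much wider than the others. With no value per library, neighbours in this order cannot be compared against their spread.

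The promoter sequences were searched on both strands for letters that interferon-activated factors bind. The ISRE was searched as GAAANNGAAA and the GAS as TTCNNNGAA, which reads the same on either strand. In the middle 300 bp, the GAS was found in 4 of the 14 promoter regions, 1 each of IFNAR2, IFNGR2, IFNLR1 and IL10RB, or 28.6%, beside 5.42% of all promoter regions. The ISRE was found in 1, that of SOCS1, beside 2.26% of all. At the 27 distal regions the GAS was found in 0, beside 13.4% of all distal regions. The ISRE was found in 1 of these 27, or 3.7%, beside 7.07%. These counts of regions are for the middle 300 bp only. Outside it, the ISRE was also present in promoter regions of IFNGR1, IFNLR1 and USP18, with 2 matches in the USP18 region next to its start site. The IFNAR1 promoter region held a GAS outside it, and some distal regions held either motif there. Shares of all regions over their whole length were not counted. Among 35116 RefSeq windows of 300 bp on GRCh38, from 250 bases before to 50 after the start, 3.57% held the ISRE and 7.66% the GAS. Of the 10 windows of the members, 1 held the ISRE and 2 the GAS. All these member counts are small. RefSeq windows were matched for 7 of the 9 genes, not for IFNAR2 and USP18. The other motifs were also counted in the middle 300 bp of regions. AP-1 (TGANTCA), a MAF motif (TGCTGAC) and the forkhead letters (TGTTTAC) were each in 1 of the 14 promoter regions, beside 4.51%, 4.33% and 3.12% of all. The CTCF core and the arms of the RFX X-box were in the middle 300 bp of none. A match is only a match of letters.

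The SOCS1 window is printed because it holds the ISRE, 113 bases before the start site. The 250 bases before the start are on the minus strand of chr16:11256205-11256454, with the ISRE in capitals.
SOCS1: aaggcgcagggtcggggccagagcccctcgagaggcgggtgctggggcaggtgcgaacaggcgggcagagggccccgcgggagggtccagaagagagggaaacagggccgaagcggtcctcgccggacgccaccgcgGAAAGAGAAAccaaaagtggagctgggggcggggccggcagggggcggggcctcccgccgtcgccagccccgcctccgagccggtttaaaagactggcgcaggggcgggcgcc

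Short stretches around the GAS matches of 3 receptor promoters show how the middle letters differ. They are written along the gene, from chr21:33404061-33404089 (plus strand), chr1:24187509-24187537 (minus strand, the match 238 bases before the start) and chr21:33266368-33266396 (plus strand, 11 bases after the start), with the GAS in capitals.
IFNGR2: gtctccgaatTTCTCGGAAtgaacaacag
IFNLR1: tgatttttttTTCCGGGAAttgagtaaaa
IL10RB: tctccgctggTTCCCGGAAgccgccgcgg
The 3 regions printed had log2 fold changes of -0.26 each. The fourth with a GAS in its middle 300 bp, at the IFNAR2 readthrough promoter, had 0.15. The SOCS1 region, the one with the ISRE in its middle 300 bp, had 0.09. None of these regions was called.

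Of the 27 distal regions, 3 were called higher and 3 lower, 11.1% each, where 18.1% of all distal regions were called higher and 10.6% lower. On the adjusted p alone, 6 were higher and 6 lower, 22.2% each, beside 23.4% and 18.3%. The median log2 fold change was 0.04, against 0.08 over all distal regions. These shares lay near the background or, for higher calls, under it. The spread was wider than at the promoters, from -1.06 at IFNLR1 to 1.32 at IFNAR2. The distal regions were also weaker, with a median signal of 102 against 514, and their median SE was 0.19 against 0.09. The 2 spreads are therefore not measured with like error. Nearness in sequence assigns a region to a gene here and does not show that it acts on it.

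**Figure D2:**
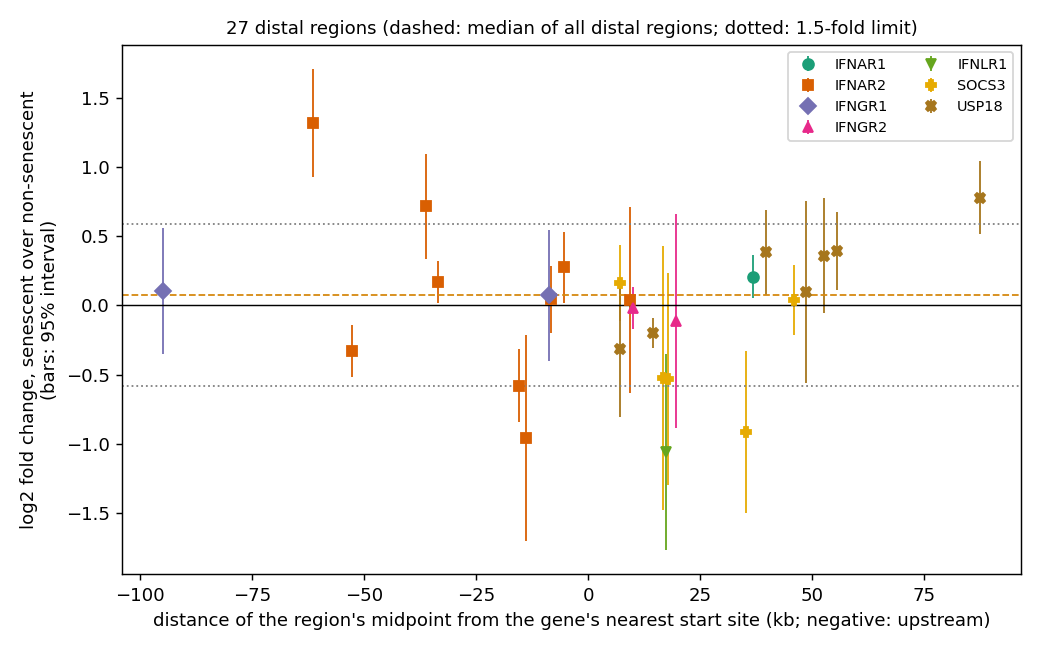
Log2 fold change, with 95% intervals, of the 27 distal regions against the distance of their midpoint from the gene's nearest start site in kb, with negative values upstream. IFNAR2 holds the highest region, at 1.32 and 61.5 kb upstream, and the lower calls of IFNLR1 and SOCS3 lie at 17.4 and 35.3 kb.

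IFNAR2 had 9 distal regions, of which 2 were called higher and 1 lower. The region with the largest rise, chr21:33143569-33144002, was intergenic and 61.5 kb upstream, had a mean signal of 96.5 and implied means of 55.3 in non-senescent and 138 in senescent cells. Its log2 fold change was 1.32 (SE 0.20, 95% interval 0.93 to 1.71, adjusted p = 7.91e-10), a 2.49-fold difference. It was the 1 distal region of the set that also passed the test of a change over 1.5-fold. Its nearest start site of any kind is that of a non-coding gene, ENSG00000226433, 8829 bp away.

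A second IFNAR2 region, chr21:33169016-33169194, lay 36.2 kb upstream in an intron of the non-coding gene LINC01548, with a mean signal of 102 and implied means of 77.2 and 127. It was higher at 0.72 (SE 0.19, adjusted p = 0.000924). The lower region, chr21:33191230-33191483, 13.9 kb upstream, had a mean signal of 31.97 and a log2 change of -0.96 (SE 0.38, adjusted p = 0.03), and its interval, -1.70 to -0.21, was wide. Next to it, chr21:33189272-33190517 was at -0.58 (SE 0.133, adjusted p = 8.34e-05), just inside the fold limit at a 1.49-fold difference. The strongest distal region of IFNAR2, chr21:33171345-33172134, had a mean signal of 652 and did not pass the test, at 0.17 with an adjusted p of 0.0685.

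Sequences of the IFNAR2 regions that opened are printed on the plus strand, from chr21:33143806-33143955 and chr21:33169045-33169194. The capitals in the first mark TGTTTAC, a letter match for forkhead factors such as the FOXA proteins of pancreas, which 9.43% of all distal regions hold in their middle 300 bp. In the second they mark GTTGNNNNNNCAAC, the arms of the X-box bound by RFX factors, which 0.433% hold. The X-box arms were added to the search after the sequence had been seen.
IFNAR2, 61.5 kb upstream: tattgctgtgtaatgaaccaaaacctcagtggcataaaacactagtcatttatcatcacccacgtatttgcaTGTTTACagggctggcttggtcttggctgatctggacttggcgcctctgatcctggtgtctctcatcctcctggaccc
IFNAR2, 36.2 kb upstream: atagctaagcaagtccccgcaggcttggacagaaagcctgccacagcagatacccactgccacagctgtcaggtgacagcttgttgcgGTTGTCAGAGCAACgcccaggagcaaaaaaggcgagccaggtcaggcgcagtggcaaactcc

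The other receptor genes had few distal regions. IFNLR1 had 1, in its own intron 17.4 kb past the start site at chr1:24169741-24170056, which was called lower with a mean signal of 33.7 and a log2 change of -1.06 (SE 0.36, adjusted p = 0.0104). IFNAR1 had a strong one just past its end, chr21:33360924-33362540, with a mean signal of 817 and 0.21 (SE 0.079, adjusted p = 0.0247), under the fold limit. The strongest of IFNGR2, chr21:33442031-33442710, lay in an intron that overlaps TMEM50B and was at -0.02 with a mean signal of 835 and an adjusted p of 0.875. IFNGR1 had 2 weak upstream regions, at 0.07 and 0.10, neither past the test. The farther, 94.9 kb away, is the last one inside the 100 kb limit, and the next region outside it, 122.8 kb from IFNGR1, was at 0.11.

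Of the inhibitors, SOCS3 had 5 distal regions and USP18 had 7, while SOCS1 and IL10RB had none in the table. The SOCS3 region chr17:78324511-78324976, 35.3 kb past the start site in an intron of a non-coding gene, was called lower, with a mean signal of 46.5 and a log2 change of -0.92 (SE 0.30, adjusted p = 0.00734). The strongest one of SOCS3, chr17:78313864-78314546, had a mean signal of 236 and was at 0.04 with an adjusted p of 0.836. All 3 lower distal calls of the set had a mean signal under 50.

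USP18 held the strongest region of the set, chr22:18163986-18165092, in its own intron. Its mean signal was 2025, or 1830 per kb, at percentile 99.1 of all distal regions, and its log2 fold change was -0.20 (SE 0.055, adjusted p = 0.000999), under the fold limit. The region called higher, chr22:18236810-18238336, was intergenic and 87.4 kb past the start site, with a mean signal of 216, implied means of 159 and 273, and a log2 change of 0.78 (SE 0.135, adjusted p = 8.77e-08).

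These USP18 regions lie in duplicated sequence. In 6 of the 7 distal regions more than 50% of the 32-base words occur again elsewhere on the main chromosomes of hg38, among them 75% of the strong intronic region and 81.8% of the one called higher. In the other 34 regions of the set this was so for 1, an IFNAR2 intron region at 61.7%, and 24 of the 34 had no repeated word. Reads of repeated words can come from other copies, so the values of these USP18 regions are uncertain. The remaining calls had no repeated word, except the lower IFNAR2 region at 30.0%.

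IFNAR2, IL10RB, IFNAR1 and IFNGR2 lie side by side on chromosome 21. Their 19 regions are consecutive in the table over 308 kb, with 3 called higher, 1 lower and 15 not called. Calls of opposite direction stood within this stretch, though the 1 lower call was weak, with a mean signal of 31.97 and an adjusted p of 0.03. Next to that region a stronger one was at -0.58 (adjusted p = 8.34e-05), just short of the fold limit. So the stretch did not move as a block. Of the regions called higher, 2 lay before IFNAR2 and 1 within IFNGR2, and between them the promoters of IL10RB and IFNAR1 were both at -0.26.

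**Figure D3:**
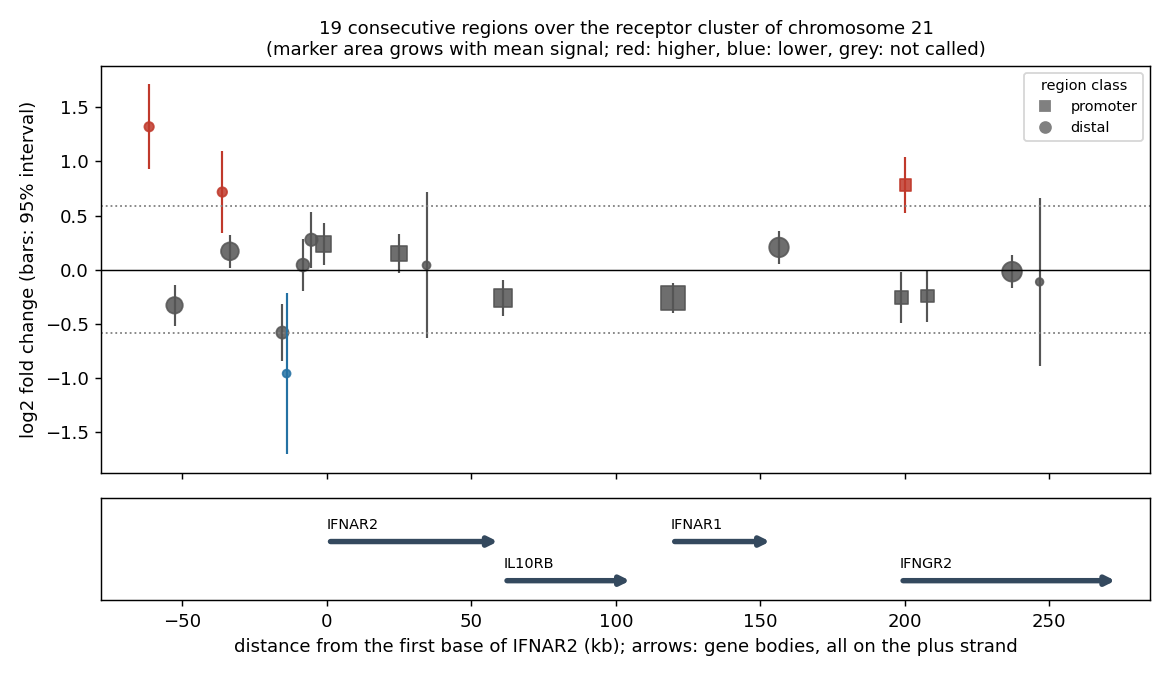
Log2 fold change, with 95% intervals, of the 19 consecutive regions of the chromosome 21 receptor genes against the distance from the first base of IFNAR2 in kb, with squares for promoter and circles for distal regions and marker area growing with mean signal. The 3 regions called higher are in red and the 1 called lower, at -0.96, is in blue, and arrows below show the genes.

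Signal and fold change were related over the whole table, which bears on the promoters. The median log2 fold change was 0.25 in regions with a mean signal of 10 to 50, -0.06 from 100 to 500 and -0.11 from 1000 up. Of the 41 regions, 9 fell in the first of these classes and 3 in the last. The strong promoters near -0.26 thus lay 0.12 to 0.14 below the running median of regions like them, as given above for IFNAR1, IFNLR1 and IL10RB.

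**Figure D4:**
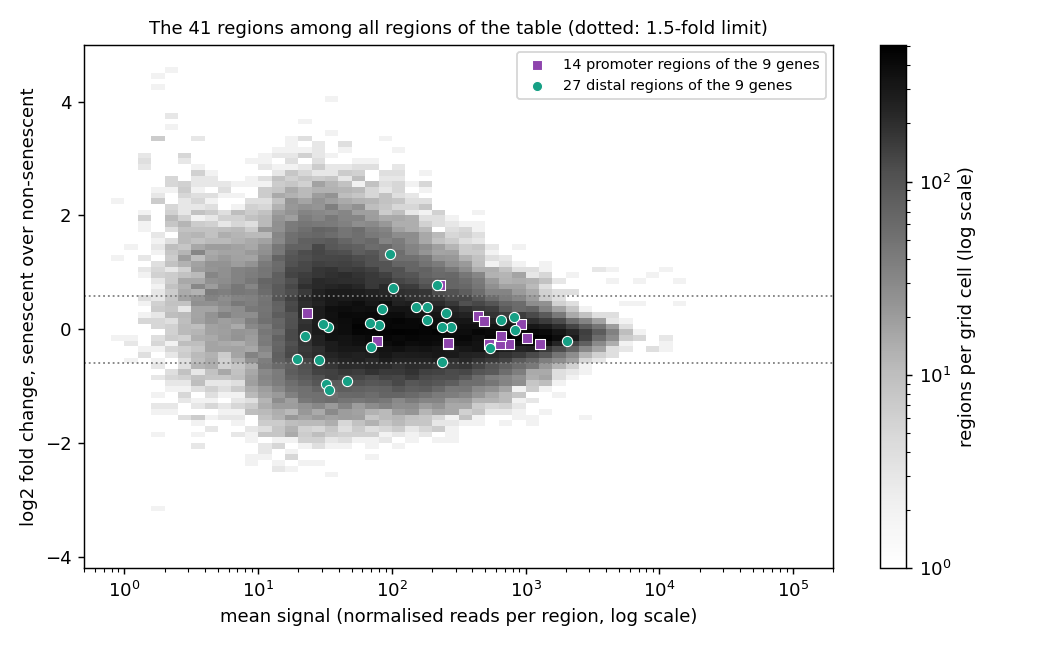
Log2 fold change against mean signal in normalised reads (log axis) for the 14 promoter (squares) and 27 distal regions (circles) of the 9 genes, over a grid shaded by the number of all regions per cell. The 41 regions lie inside the cloud, 34 of them not called.

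The rest of the pathway was read from lists of 40 genes that do not include the members. Their 42 promoter regions held 0 called higher and 6 lower, the latter 14.3% beside 9.04% of all promoter regions. Their 115 distal regions held 30 higher and 8 lower, 26.1% and 6.96% beside 18.1% and 10.6% of all distal regions. Of the 30, 12 were among the 28 distal regions of the list of other negative regulators, which includes PIAS1, or 42.9%. In the lists of ligands, of kinases and STATs, of class II cytokine receptors and of SOCS genes, the share higher ranged from 15% to 23.3%. These differences were not tested. No promoter region was found for the 9 ligand genes listed, among them IFNB1, IFNG and IFNL1. Of the kinases and STATs, 1 of 11 promoter regions, 9.09% and so at the background, was called lower, one of TYK2, the kinase bound to IFNAR1, at -1.25 (SE 0.32, adjusted p = 0.000475) with a mean signal of 45.1. The stronger TYK2 promoter region, at a mean signal of 1710, was at -0.17 (SE 0.058, adjusted p = 0.00857), short of the fold limit.

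Of 6 promoter regions of other class II cytokine receptor genes, the family of IL10RB, 3 were lower, a count too small to read against the 9.04% of all promoter regions. They were 1 region of IL10RA at -1.06 (SE 0.16, adjusted p = 7.13e-10), IL20RA at -0.90 (SE 0.179, adjusted p = 4.03e-06) and IL22RA1 at -0.83 (SE 0.24, adjusted p = 0.00204). These chains pair with IL10RB for other cytokines. The called regions were weak, with mean signals from 69.4 to 148.8, and the stronger IL10RA promoter region, at a mean signal of 896, was at -0.32 (SE 0.075, adjusted p = 0.000115), short of the fold limit.

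Among other inhibitors, the 9 promoter regions of the remaining SOCS genes held no call, where 3.56% of all promoter regions were called higher and 9.04% lower. On the adjusted p alone, 1 of the 9 was higher and 2 were lower. Of 11 regions of other negative regulators, 1 was lower, that of the STAT inhibitor PIAS1, at -0.66 (SE 0.072, adjusted p = 3.5e-18) with a mean signal of 1049. In the ISG15 pathway, which USP18 reverses, 1 of 5 was lower, that of the ISG15 ligase HERC5, at -0.63 (SE 0.065, adjusted p = 5.23e-20) with a mean signal of 1216. Both are strong regions with narrow errors, but at 1.58-fold and 1.54-fold lower they lay close to the fold limit. The 1 of 11 is 9.09%, so at the background of 9.04%, and 1 of 5 is too small a count to read. The SOCS1 and USP18 promoters were not called, though the USP18 region next to its start site was lower on the adjusted p alone, at -0.26 (adjusted p = 0.0101).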

How the data were processed

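ATAC-seq libraries of EndoC-βH3 cells, 3 senescent and 3 non-senescent by their labels, were used as 1 deposited table of regions. Per the study's methods, adapters were trimmed (Trim Galore), alignment to hg38 used Bowtie2, and mitochondrial and duplicate reads were discarded before the shift for the transposase. The authors then called MACS2 peaks, merged them, counted reads in the merged set and fitted DESeq2. Versions are not given in the sources used here, nor is a filter on mapping quality.

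The mean signal in the deposited table is the authors' mean normalised count over the libraries. The log2 fold change and its SE are deposited log2 values, the score is the authors' Wald statistic, and the p-value and adjusted p-value are deposited with them. These columns are the authors' own comparison, used because the table holds no values per library, so no count model was run and the depth of each library is unknown. It was checked that the score is the fold change over its SE and that adjusted p-values are Benjamini-Hochberg values over all 108542 regions.

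Regions were assigned to genes with GENCODE 44 and motifs searched in hg38 and RefSeq windows, with Python 3.11.15, numpy 2.4.6, pandas 2.3.3 and scipy 1.17.1. Scripts were tested on simulated data. Repeats were 32-base words found more than once, on either strand. The text names every promoter region of the 9 genes, each called distal region, the strongest distal region of each gene, and called promoter regions of the lists. The members, lists and motifs were chosen with earlier results of these data known. Alternatives were other thresholds, windows, a minimum signal, centring, and removal of running medians on signal or GC content. A marker gene is not reported here.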

Additional observations from a re-analysis of the deposited data

How the results depend on the processing

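Of 40 counts under alternatives, 27 stayed within 1.5 times. Called higher promoter regions (1) became 2 with no fold limit and 0 under the test of a change over 1.5-fold or with windows of 1 kb and 0.5 kb, and lower ones (0) became 4 with no fold limit. Distal regions called higher (3) became 6 with no fold limit, 1 under the test of the fold, 1 within 50 kb and 0 with start sites of all genes, where each has a non-coding gene nearer. Distal regions called lower (3) became 1 at an adjusted p under 0.01, 6 with no fold limit, 0 under the test of the fold and 0 at a mean signal of at least 50. Of 96 values of single regions, 84 kept direction and side of the threshold, 8 lost and 3 gained the call, and 1 reversed, the upstream USP18 promoter region at 0.022 with the trend on mean signal removed; the cause was not tested. No paired analysis was possible because separate libraries are not given in the table. For the same reason leaving out a replicate, edgeR and DESeq2 on counts were not run. Weak regions have wide errors, which limits SOCS3 and the lower calls most.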
